A study of Mus musculus with 20 samples.

Results

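Striatal cholinergic signalling was followed through 10 genes that were measured by 13 probes, out of 20972 named genes and 55681 probes on each array. The genes were Chat, Slc18a3, Slc5a7, Ache, Bche and the muscarinic receptors Chrm1 to Chrm5, and every probe whose transcript accession belonged to 1 of these symbols was taken. The samples were brain RNA from 20 male C57BL/6J mice, 5 in each of 4 groups, and each mouse had an array of its own. All 20 mice carried a transgene in which the GFAP promoter, active mainly in astrocytes, drives a tetracycline-binding protein, and all received doxycycline at 100 mg/kg for 7 days. The Tat+ mice also carried the TRE-driven Tat86 transgene of the HIV protein Tat, so that doxycycline induced Tat through an astrocyte promoter, while the Tat− mice lacked this transgene. Methamphetamine (Meth) was given at 2 mg/kg, or saline (Sal) in its place, for 7 days. The groups are written Tat−/Sal (Tat-Meth- in the deposited labels), Tat−/Meth (Tat-Meth+), Tat+/Sal (Tat+Meth-) and Tat+/Meth (Tat+Meth+). According to the labels the left hemisphere of perfused brains was taken 24 h after the last injection, from mice of 6 to 7 weeks. The study's methods instead describe the dissected caudate putamen of mice aged 3 to 5 months, taken 1 h after a Meth challenge of 1 mg/kg that every mouse received after 7 days of abstinence. If the latter holds, the saline groups had also met Meth once, and the contrasts below set repeated Meth against repeated saline. The level of the Tat transgene was not analysed here.

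Acetylcholine in the striatum comes mostly from a sparse class of large interneurons. Choline acetyltransferase (Chat) makes it from choline and acetyl-CoA, the vesicular transporter Slc18a3 loads it into vesicles, and after release acetylcholinesterase (Ache) splits it so that the high-affinity choline transporter Slc5a7 can take choline back up. The muscarinic receptors read the signal in 2 ways: Chrm1, Chrm3 and Chrm5 couple to Gq and phospholipase C, while Chrm2 and Chrm4 couple to Gi/o and lower cyclic AMP. In the striatum Chrm4 is known as a receptor of the projection neurons of the direct pathway, where it opposes D1 dopamine receptors, Chrm1 is found on projection neurons at large, and Chrm2 is an autoreceptor of cholinergic interneurons.

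Values are log2 levels: the log2 of the background-corrected spot signal, set relative to the 75th percentile of its array and returned to a common scale, so that a difference of 1 is a 2-fold change. A spot was counted as above background when the scanner software called it well above background. The 75th percentile lay between 9.64 and 10.33 on the log2 scale over the 20 arrays, and between 55.4% and 70.9% of the probes were well above background. Arrays of the same group correlated at 0.9783 to 0.9947 over all probes. Tat−/Meth replicate 5 stood apart from its group, with 70.9% of probes well above background against 56.4% to 60.2% in the other 4. The arrays came on 3 slides, and this bears on every value below. Slide 1 held the 5 Tat−/Meth arrays and nothing else, slide 2 held the 5 Tat−/Sal and 3 of the Tat+/Meth arrays, and slide 3 held the other 2 Tat+/Meth and the 5 Tat+/Sal arrays. Bright control spots read 14.66 to 15.06 before scaling on slide 1, 17.08 to 17.3 on slide 2 and 16.8 to 17.42 on slide 3. Slide and group therefore cannot be told apart in any contrast with Tat−/Meth. Tat+/Sal and Tat−/Sal shared no slide either, and only Tat+/Meth bridged slides 2 and 3.

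The tissue was checked against marker genes. All 9 markers of striatal projection neurons, among them Drd1, Drd2 and Adora2a, were well above background on all 20 arrays, and their summed level ran from 19.89 to 20.26 over the arrays. The summed cortical list (6 genes, 5 tested, none passing) ran from 9.61 to 11.28 in Tat−/Sal, from 9.41 to 10.24 in Tat−/Meth, from 8.99 to 11.02 in Tat+/Sal and from 9.26 to 9.78 in Tat+/Meth. No marker of hindbrain and motor nuclei, a second large source of cholinergic neurons in the brain, reached the level needed for testing (0 of 5).

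Of the 13 member probes, 12 were bright enough to be tested, for which the mean log2 level of some group had to reach 6. The untested probe was that of Chrm5. None of the member spots was saturated. Chrm1, Slc5a7 and Ache each had a pair of probes, called A (the brighter) and B here. Both probes of Slc5a7 name the same transcript, as do both of Ache, whereas those of Chrm1 name different transcripts. A difference was called when limma's moderated test, fitted over all 31516 probes tested, gave an adjusted p (Benjamini-Hochberg) below 0.05. The number of arrays, 5 a group, limits the precision. In bulk tissue, fewer cells of a type and less RNA per cell cannot be told apart.

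Start-site sequences are shown for the 3 genes that mark cholinergic neurons and for Chrm4, the receptor with the lowest p among the receptors, so that the members that moved can be set beside those that did not. In RefSeq, Slc18a3 lies inside the span of Chat, an arrangement known as the cholinergic gene locus. Promoter windows were found for 9 of the 10 genes. Each sequence is the 250 bases before the RefSeq start on GRCm38.p6, written 5′ to 3′ on the gene's strand, and capitals mark matches, on either strand, to GGGCGG (the core of the Sp1 motif), TGACG (the cyclic AMP response element core) or TATAAA. The windows are chr14:32465910-32466159 (minus strand) for Chat, chr14:32464851-32465100 (minus strand) for Slc18a3, chr17:54299035-54299284 (minus strand) for Slc5a7 and chr2:91921939-91922188 (plus strand) for Chrm4.
Chat: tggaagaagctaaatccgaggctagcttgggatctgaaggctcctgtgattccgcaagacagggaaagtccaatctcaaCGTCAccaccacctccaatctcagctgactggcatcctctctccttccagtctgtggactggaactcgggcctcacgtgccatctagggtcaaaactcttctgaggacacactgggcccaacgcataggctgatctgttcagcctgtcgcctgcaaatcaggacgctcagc
Slc18a3: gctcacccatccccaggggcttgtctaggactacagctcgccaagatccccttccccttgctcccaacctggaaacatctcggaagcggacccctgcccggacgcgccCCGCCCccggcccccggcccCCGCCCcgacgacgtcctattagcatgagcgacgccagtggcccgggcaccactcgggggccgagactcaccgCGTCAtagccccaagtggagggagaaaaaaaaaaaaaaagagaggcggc
Slc5a7: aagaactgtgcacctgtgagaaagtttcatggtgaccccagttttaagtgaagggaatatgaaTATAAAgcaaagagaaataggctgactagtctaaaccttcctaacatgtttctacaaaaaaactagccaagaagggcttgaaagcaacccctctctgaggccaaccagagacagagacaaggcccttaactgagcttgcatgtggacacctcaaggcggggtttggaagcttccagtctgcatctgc
Chrm4: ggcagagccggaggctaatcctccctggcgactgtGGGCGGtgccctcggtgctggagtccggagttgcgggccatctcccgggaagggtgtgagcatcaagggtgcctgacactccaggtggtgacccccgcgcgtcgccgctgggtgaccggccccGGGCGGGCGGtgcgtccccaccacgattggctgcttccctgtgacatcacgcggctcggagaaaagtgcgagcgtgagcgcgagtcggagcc
The GC content was 54.8% for Chat, 66% for Slc18a3, 45.6% for Slc5a7 and 70% for Chrm4, against a median of 52.4% over all windows. TGACG was present in Chat and Slc18a3 and in no other member (2 of 9), and in 17.8% of 32851 promoter windows of the same length. GGGCGG was present in 5 of 9 members, with 2 matches in Slc18a3 and 3 in Chrm4, of which a pair overlap, and in 32.7% of all windows. TATAAA was present in 1 of 9, Slc5a7, and in 12.4% of all windows. These are matches of letters only.

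Chat, which makes acetylcholine, had its lowest mean in Tat−/Meth and passed the test against both Tat−/Sal and Tat+/Meth. Slc18a3, transcribed from the same locus, passed in no contrast with all 20 arrays at the 75th percentile scaling. Under some other settings Slc18a3 did pass. Chat read 12.24, 11.95, 12.12, 11.89 and 12.19 in the 5 Tat−/Sal arrays (replicates 1 to 5). It read 11.61, 11.67, 11.51, 11.46 and 11.91 in Tat−/Meth. Chat was below the whole Tat−/Sal range in 4 of 5 Tat−/Meth arrays, and replicate 5 overlapped with the lowest Tat−/Sal array. The Tat+/Sal arrays read 12.02, 11.87, 12.54, 11.98 and 11.78, and the Tat+/Meth arrays 12.13, 12.15, 12.14, 12.23 and 12.14. Tat+/Meth thus lay above all Tat−/Meth arrays with hardly any spread (SD 0.04, n = 5). Chat fell by 0.45 on the log2 scale in Tat−/Meth vs. Tat−/Sal (SE 0.12, 95% interval −0.7 to −0.2, 1.36-fold lower, adjusted p = 0.00409 by limma). It was 0.53 higher in Tat+/Meth vs. Tat−/Meth (interval 0.28 to 0.77, adjusted p = 0.00108). With each array scaled to its median in place of the 75th percentile, neither difference passed (−0.33, adjusted p = 0.103, and 0.37, adjusted p = 0.0605).

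Slc18a3 read 11.57, 11.52, 11.65, 11.37 and 11.81 in Tat−/Sal and 11.59, 11.6, 11.32, 11.38 and 11.3 in Tat−/Meth. It read 11.75, 11.72, 11.69, 11.76 and 11.58 in Tat+/Sal, and 11.42, 11.77, 11.54, 11.49 and 12 in Tat+/Meth. All 4 groups overlapped in part. Its difference was −0.14 (interval −0.36 to 0.08, adjusted p = 0.261) in Tat−/Meth vs. Tat−/Sal and 0.21 (interval −0.01 to 0.43, adjusted p = 0.103) in Tat+/Meth vs. Tat−/Meth. Without scaling Slc18a3 passed in both, at −0.56 (adjusted p = 0.000229) and 0.55 (adjusted p = 0.000361), and in the interaction of Tat and Meth (0.58, adjusted p = 0.00515). Leaving out the scaling moves all probes of an array alike, so these unscaled values include an offset common to all probes. By limma Slc18a3 passed in the second with quantile normalization (0.26, adjusted p = 0.027) and without Tat+/Meth replicate 1 (0.26, adjusted p = 0.0493). Within each array, the Chat level less the Slc18a3 level averaged 0.5 (0.38 to 0.67) in the Tat−/Sal mice and 0.19 (0.01 to 0.61) in the Tat−/Meth mice. The groups overlapped, and this difference of −0.3 gave p = 0.0397 in an exact two-sided permutation test, which became 0.265 after adjustment over the 20 such tests run on probe pairs.

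**Figure D1:**
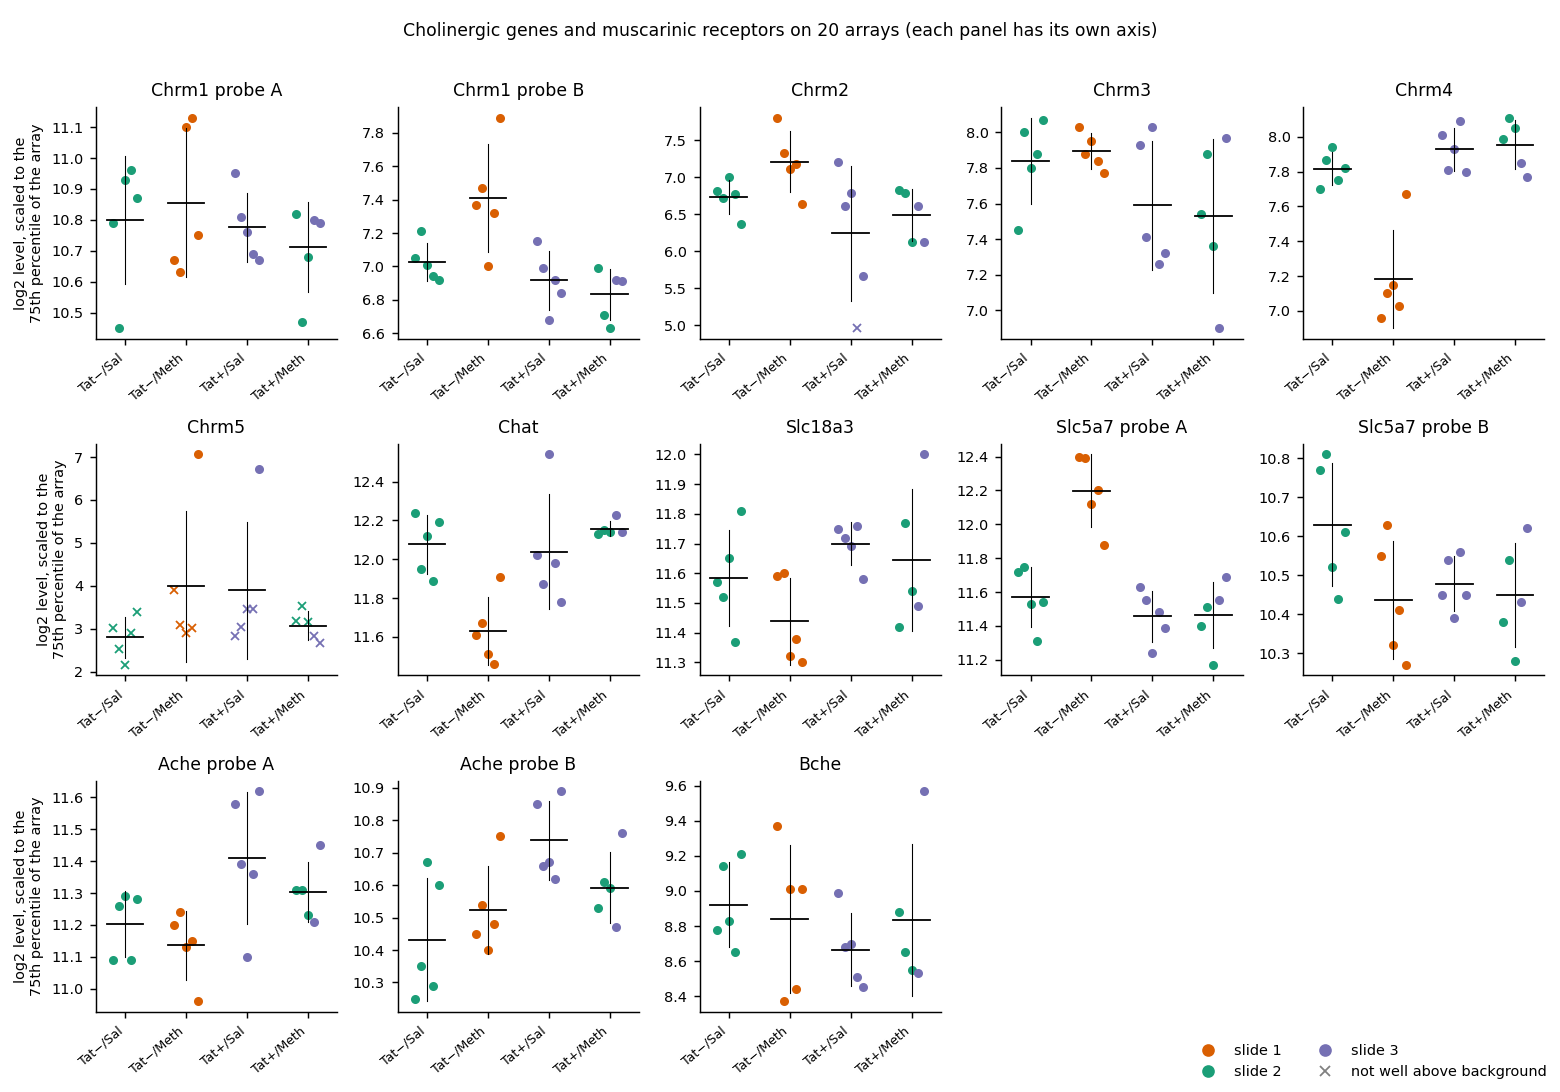
Log2 level of each of the 13 member probes (y axis, one panel a probe) in the 4 groups of 5 arrays (x axis), where each point is 1 array coloured by its slide, lines give the group mean with its SD, and crosses are spots not well above background. Chrm4 and Chat sit lowest and Slc5a7 probe A sits highest in Tat−/Meth, and Chrm5 is a cross on all but 1 Tat−/Meth and 1 Tat+/Sal array.

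Slc5a7, the choline transporter, gave different values on its 2 probes: A rose in Tat−/Meth vs. Tat−/Sal, and B did not. Probe A read 11.72, 11.75, 11.53, 11.31 and 11.54 in Tat−/Sal against 12.4, 12.39, 12.12, 12.2 and 11.88 in Tat−/Meth. Every Tat−/Meth array was above every Tat−/Sal array. The Tat+/Sal arrays read 11.63, 11.55, 11.24, 11.48 and 11.39 and the Tat+/Meth arrays 11.4, 11.51, 11.17, 11.55 and 11.69, which overlapped with Tat−/Sal. Probe A rose by 0.63 in Tat−/Meth vs. Tat−/Sal (SE 0.12, interval 0.38 to 0.87, 1.55-fold, adjusted p = 0.000208 by limma) and fell by 0.74 in Tat+/Meth vs. Tat−/Meth (interval −0.98 to −0.49, 1.67-fold, adjusted p = 3.71e-05). Without any scaling of the arrays neither passed (0.21, adjusted p = 0.295, and −0.4, adjusted p = 0.05).

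Probe B of Slc5a7 read 10.77, 10.81, 10.52, 10.44 and 10.61 in Tat−/Sal and 10.55, 10.63, 10.32, 10.41 and 10.27 in Tat−/Meth. Here 3 of 5 Tat−/Meth arrays were under the lowest Tat−/Sal value, the reverse of probe A. Its difference was −0.19 (interval −0.37 to −0.01) with adjusted p = 0.0713, so it did not pass, and the intervals of the 2 probes do not meet. By limma it passed as lower with quantile normalization (adjusted p = 0.0453) and without scaling (−0.61, adjusted p = 0.000382). It also passed with the replicate number as a block (adjusted p = 0.0399). So did 2 fits that left out 1 array (Tat−/Meth replicate 2, adjusted p = 0.0306, or Tat−/Sal replicate 4, adjusted p = 0.0326). Slide as a random block gave adjusted p = 0.0397, but slide 1 held only Tat−/Meth, so that setting could not adjust this contrast for slide. In Tat+/Sal probe B read 10.45, 10.54, 10.39, 10.56 and 10.45, and in Tat+/Meth 10.38, 10.54, 10.28, 10.43 and 10.62. Probe B differed by 0.01 in Tat+/Meth vs. Tat−/Meth (interval −0.17 to 0.19).

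Set against each other within an array, the 2 Slc5a7 probes separated Tat−/Meth from every other group. The level of A less that of B ranged from 0.87 to 1.01 for Tat−/Sal, from 1.61 to 1.85 for Tat−/Meth, from 0.85 to 1.18 for Tat+/Sal and from 0.88 to 1.11 for Tat+/Meth. The mean was 0.94 for Tat−/Sal and 1.76 for Tat−/Meth, a difference of 0.82 (interval 0.7 to 0.94), and the groups did not overlap. The exact permutation p was 0.00794, the smallest that 5 against 5 arrays can give, and after adjustment over the 20 tests it was 0.0794. Even complete separation could not bring a test below 0.05 after this adjustment unless several other tests also reached the smallest p. The pair was chosen after its values were seen. A ratio within an array shows unequal change of the 2 probes, and where each probe lies on the transcript was not analysed here. Across the 20 arrays, after the group means were removed, the 2 probes still correlated at r = 0.88, given as a description.

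**Figure D2:**
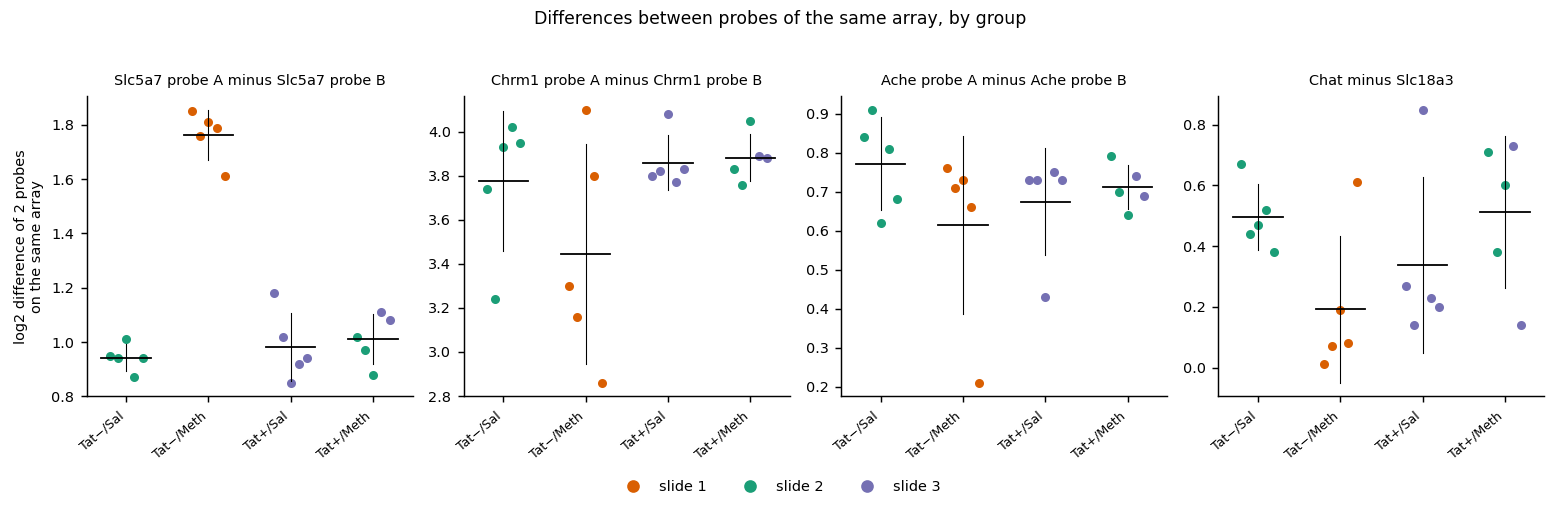
Difference within each array (y axis, log2 scale) between probe A and probe B of Slc5a7, Chrm1 and Ache and between Chat and Slc18a3, by group (x axis), where each point is 1 array coloured by its slide and lines give the group mean with its SD. For Slc5a7 the 5 Tat−/Meth arrays lie at 1.61 to 1.85, above the 15 others at 0.85 to 1.18, whereas the groups overlap in the other panels.

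The 2 probes of Ache, which ends the signal by splitting acetylcholine, stayed within a narrow range. Probe A read 11.09, 11.26, 11.29, 11.09 and 11.28 in Tat−/Sal and 11.58, 11.39, 11.1, 11.36 and 11.62 in Tat+/Sal. Probe B read 10.25, 10.35, 10.67, 10.29 and 10.6 in Tat−/Sal and 10.85, 10.66, 10.67, 10.62 and 10.89 in Tat+/Sal. With probe A, 4 of 5 Tat+/Sal arrays lay above every Tat−/Sal array, and with probe B 2 of 5. The differences in Tat+/Sal vs. Tat−/Sal were 0.21 (interval 0.02 to 0.39, adjusted p = 0.247) and 0.31 (interval 0.11 to 0.5, adjusted p = 0.111), and neither passed. The latter passed with slide as a random block (adjusted p = 0.0178) and without Tat−/Sal replicate 3 (adjusted p = 0.0498), but not with slide as a fixed block (0.27, adjusted p = 1). Tat−/Meth read 11.2, 11.24, 11.13, 11.15 and 10.96 on probe A and 10.45, 10.54, 10.4, 10.48 and 10.75 on probe B. Tat+/Meth read 11.31, 11.31, 11.23, 11.21 and 11.45 on probe A and 10.53, 10.61, 10.59, 10.47 and 10.76 on probe B. Both groups overlapped with Tat−/Sal on both probes. The differences in Tat−/Meth vs. Tat−/Sal were −0.07 (interval −0.25 to 0.12) and 0.09 (interval −0.1 to 0.28).

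Bche, the butyrylcholinesterase found largely in glia and white matter, varied more among arrays of the same group than between groups. It read 8.78, 9.14, 8.83, 8.65 and 9.21 in Tat−/Sal and 9.37, 8.37, 9.01, 8.44 and 9.01 in Tat−/Meth. Its Tat+/Sal values were 8.99, 8.68, 8.7, 8.51 and 8.45, and its Tat+/Meth values 8.88, 8.65, 8.55, 8.53 and 9.57. All groups overlapped. Its difference in Tat−/Meth vs. Tat−/Sal was −0.08 (interval −0.51 to 0.36, adjusted p = 0.769). Without scaling it was −0.5 and passed (adjusted p = 0.0422), a value that includes the offset common to all probes.

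Among the receptors, Chrm4 gave the clearest separation. It read 7.7, 7.87, 7.94, 7.75 and 7.82 in Tat−/Sal and 6.96, 7.1, 7.15, 7.03 and 7.67 in Tat−/Meth. The Tat+/Sal arrays read 8.01, 7.81, 7.93, 8.09 and 7.8 and the Tat+/Meth arrays 7.99, 8.11, 8.05, 7.85 and 7.77. Every Tat−/Meth array lay below every array of the other groups, although replicate 5, at 7.67, came close to the lowest Tat−/Sal array at 7.7. Chrm4 fell by 0.63 in Tat−/Meth vs. Tat−/Sal (SE 0.11, interval −0.87 to −0.4, 1.55-fold, adjusted p = 0.000118 by limma) and was 0.77 higher in Tat+/Meth vs. Tat−/Meth (interval 0.54 to 1, 1.71-fold, adjusted p = 1.27e-05). Both differences kept an adjusted p below 0.05 by limma in the 12 alternative settings fitted for this probe. They also did so in all 20 fits that left out 1 array. The 12 settings do not include the 2-fold and 3-fold thresholds, which neither difference met. None of the 12 could separate slide from group.

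Chrm2, the other Gi/o-coupled receptor, read 6.81, 6.72, 7, 6.77 and 6.36 in Tat−/Sal and 7.8, 7.33, 7.11, 7.17 and 6.64 in Tat−/Meth. It read 7.2, 6.61, 6.78, 4.96 and 5.66 in Tat+/Sal, where the spot at 4.96 was not well above background, and 6.82, 6.78, 6.12, 6.61 and 6.12 in Tat+/Meth. In 4 of 5 Tat−/Meth arrays it lay above every Tat−/Sal array. The spread was wide, and the difference of 0.48 had an interval of −0.21 to 1.16 (adjusted p = 0.232). The difference in Tat+/Meth vs. Tat−/Meth was −0.72 (interval −1.4 to −0.03, adjusted p = 0.0714), which passed in 6 of 12 alternative settings.

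Among the Gq-coupled receptors, only the dimmer probe of Chrm1 passed the test. Chrm1 probe A read 10.79, 10.45, 10.93, 10.96 and 10.87 in Tat−/Sal and 10.67, 10.63, 11.1, 11.13 and 10.75 in Tat−/Meth. It read 10.95, 10.81, 10.76, 10.69 and 10.67 in Tat+/Sal and 10.82, 10.47, 10.68, 10.8 and 10.79 in Tat+/Meth. The groups overlapped, and the difference of 0.06 in Tat−/Meth vs. Tat−/Sal had an interval of −0.18 to 0.29. Probe B, which names another Chrm1 transcript, read 7.05, 7.21, 7.01, 6.94 and 6.92 in Tat−/Sal and 7.37, 7.47, 7, 7.32 and 7.89 in Tat−/Meth. Its Tat+/Sal arrays read 7.15, 6.99, 6.68, 6.92 and 6.84 and its Tat+/Meth arrays 6.99, 6.71, 6.63, 6.92 and 6.91. In 4 of 5 Tat−/Meth arrays probe B lay above every Tat−/Sal array, and all 5 Tat+/Meth arrays lay below every Tat−/Meth array. It rose by 0.39 in Tat−/Meth vs. Tat−/Sal (interval 0.12 to 0.65, 1.31-fold, adjusted p = 0.0174 by limma), but stood at −0.03 (adjusted p = 0.882) without scaling, and fell by 0.58 in Tat+/Meth vs. Tat−/Meth (interval −0.85 to −0.31, adjusted p = 0.000928). Without scaling the latter was −0.24 and did not pass (adjusted p = 0.276). Within arrays, the level of A less that of B did not separate these groups (difference −0.33, interval −0.96 to 0.3, exact permutation p = 0.262).

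Chrm3 read 7.45, 8, 7.8, 7.88 and 8.07 in Tat−/Sal, 8.03, 7.88, 7.95, 7.84 and 7.77 in Tat−/Meth, 7.93, 7.41, 8.03, 7.26 and 7.32 in Tat+/Sal and 7.54, 7.88, 7.36, 6.9 and 7.97 in Tat+/Meth. The groups overlapped and no contrast passed (0.05, interval −0.34 to 0.45, in Tat−/Meth vs. Tat−/Sal). The Chrm5 spot stood well above background on 1 Tat−/Meth array (7.06) and 1 Tat+/Sal array (6.71), and on no array of the other groups. The other 18 arrays read 2.16 to 3.9, and no fold is given for this gene.

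Across the members, 4 of 12 probes passed in Tat−/Meth vs. Tat−/Sal, a contrast in which 50.3% of all probes passed. Of the 4, Chrm4 and Chat fell and Slc5a7 probe A and Chrm1 probe B rose, where 22.2% of all probes were called lower and 28.1% higher. None changed more than 2-fold, as 11.6% of all probes did. Non-overlap of the 2 groups was found for 1 of 12 probes downward (Chrm4) and 1 of 12 upward (Slc5a7 probe A), against 16.2% and 20.3% of all probes. The median difference over the 12 probes was −0.01, against 0.1 over all probes. That all-probe median moved to 0.22 with median scaling, 0.11 with quantile normalization and −0.33 without scaling, so a difference of such size in a single gene rests on the scaling. Without Tat−/Meth replicate 5 the 4 probes still passed, at −0.76 for Chrm4, −0.52 for Chat, 0.71 for Slc5a7 probe A and 0.27 for Chrm1 probe B (adjusted p = 0.0484 by limma).

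The 12 probes were next compared in Tat+/Meth vs. Tat−/Meth, which uses the same Tat−/Meth arrays as the preceding contrast, so the 2 are not independent. Again 4 of 12 passed, against 53.5% of all probes. Chat and Chrm4 were higher, where 23.2% of all probes were called higher, and Slc5a7 probe A and Chrm1 probe B lower, where 30.3% were. In each case the 2 groups did not overlap, as for 16.2% of all probes upward and 21.1% downward. The median was 0 over the members and −0.09 over all probes.

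The question of whether Tat altered the response to Meth was put to the interaction, the Meth difference among Tat+ arrays minus the one among Tat− arrays. Of 12 probes 4 passed, against 37% of all probes, with 2 positive and 2 negative where 19% and 18.1% of all probes were. The interaction was 0.66 for Chrm4 (interval 0.33 to 0.99, adjusted p = 0.00271), 0.57 for Chat (interval 0.22 to 0.92, adjusted p = 0.0122) and −0.62 for Slc5a7 probe A (interval −0.97 to −0.28, adjusted p = 0.00593), but without scaling the last was −0.14 (adjusted p = 0.644). For Chrm1 probe B it was −0.47 (adjusted p = 0.047), which passed in only 4 of 20 fits that left out 1 array (−0.35, adjusted p = 0.0676, without Tat−/Meth replicate 5) and turned to 0.01 without scaling. With median scaling it did not pass for Chrm4 (0.43, adjusted p = 0.0856) or Chat (0.34, adjusted p = 0.253), nor with normexp background correction for Chrm4 (0.34, adjusted p = 0.0601). All of these lean on the Tat−/Meth arrays of slide 1.

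**Figure D3:**
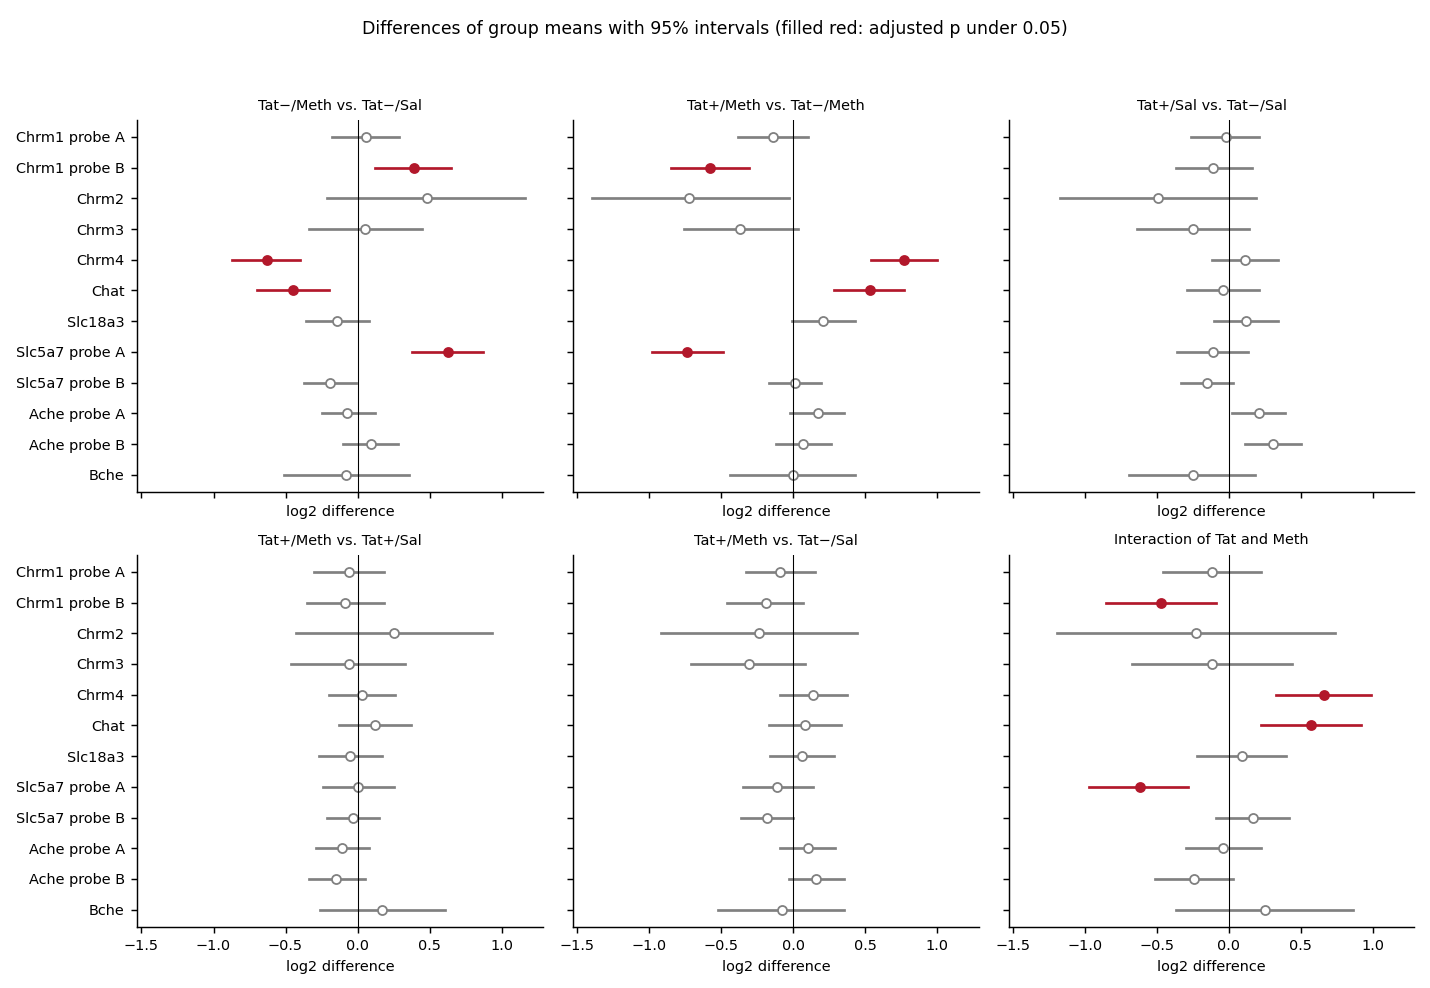
Difference in log2 level with its 95% interval (x axis) for the 12 tested member probes (y axis), with a panel for each of the 5 contrasts and for the interaction, filled red where the adjusted p was below 0.05. Filled points occur only for Chat, Chrm4, Slc5a7 probe A and Chrm1 probe B, and only in the panels that include the Tat−/Meth arrays.

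Without the Tat−/Meth arrays no member passed. For Tat+/Sal vs. Tat−/Sal the count by limma was 0 of 12 (2 at an unadjusted p below 0.05, both of Ache), against 0.708% of all probes, and the methods' t-test gave 1 unadjusted. For Tat+/Meth vs. Tat+/Sal it was 0 of 12 (0 unadjusted), against 0% of all probes, with differences of −0.15 to 0.25 and a smallest adjusted p of 0.558. For Tat+/Meth vs. Tat−/Sal it was 0 of 12 (0 unadjusted), against 0.00317% of all probes, with differences of −0.31 to 0.16 and a smallest adjusted p of 0.778. The intervals bound what could have been missed: in Tat+/Meth vs. Tat+/Sal that of Chat ran from −0.13 to 0.37, that of Chrm4 from −0.2 to 0.26 and that of Slc5a7 probe A from −0.24 to 0.25. Within slides the following was found. On slide 2, the 3 Tat+/Meth arrays differed from Tat−/Sal by 0.06 for Chat, 0.24 for Chrm4 and −0.21 for Slc5a7 probe A. On slide 3, the 2 Tat+/Meth arrays differed from Tat+/Sal by 0.14, −0.12 and 0.16 for the same probes.

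Chat, Slc18a3 and Slc5a7 mark the same neurons, and their deviations from the group means were therefore correlated over the 20 arrays. The deviations of Slc18a3 and Slc5a7 probe A had Pearson's r = 0.58 (permutation p = 0.0167, adjusted p = 0.05004 over 3 pairs) and Spearman's rho = 0.61 (permutation p = 0.0131, adjusted p = 0.0393). Without the 2 arrays farthest from the median of Slc18a3, r was 0.59. With quantile normalization neither passed (r = 0.52, adjusted p = 0.1138, and rho = 0.55, adjusted p = 0.0694, both by permutation). On the 15 arrays of slides 2 and 3 alone r was 0.48 (permutation p = 0.122). Chat went with neither: r was 0.14 with Slc18a3 (permutation p = 0.413, adjusted p = 0.4131, rho = 0.29, permutation p = 0.196) and −0.24 with Slc5a7 probe A (permutation p = 0.315, adjusted p = 0.4131, rho = −0.02, permutation p = 0.943). Without the 2 farthest arrays these became 0.41 and 0.31, and on slides 2 and 3 they were 0.21 and −0.14.

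**Figure D4:**
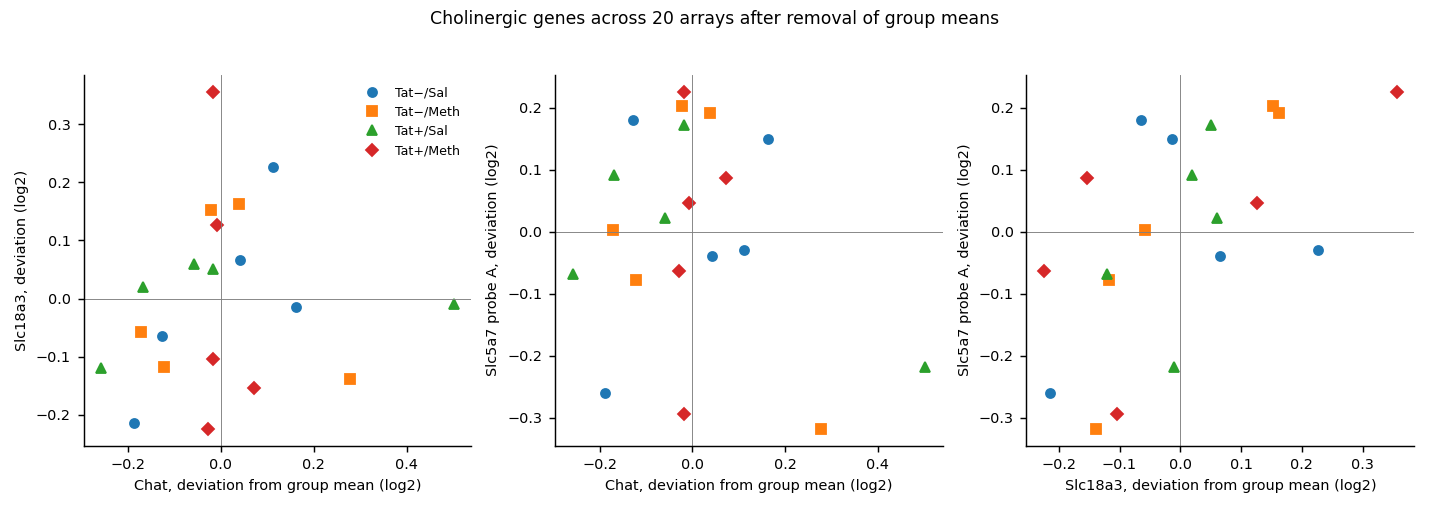
Deviation of each array from its group mean (both axes, log2 scale) for the 3 pairs among Chat, Slc18a3 and Slc5a7 probe A, each point 1 of 20 arrays with a symbol and colour for its group. Points lean upward for Slc18a3 and Slc5a7 probe A (r = 0.58) and scatter for the pairs with Chat (r = 0.14 and −0.24).

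The genes whose deviations were most like those of Chat, among 15053 genes represented by their brightest probe, were Slc35d1, a nucleotide sugar transporter (r = 0.888 over 20 arrays), Slamf9 (0.841), Nkpd1 (0.839), Usp8, a deubiquitinase (0.825), and Gpatch2 (0.818). They are given as a description with no test. Much of the likeness came from the 2 arrays that deviated most in Chat, Tat+/Sal replicate 3 and Tat−/Meth replicate 5: without them r was 0.686, 0.651, 0.528, 0.661 and 0.461 in the same order. Slc18a3 ranked 5334 in this list, Chrm4 1977 (r = 0.369), Slc5a7 11866 and Ache 14661 (r = −0.622, and −0.162 without the 2 arrays).

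The wider pathway was described gene by gene from the brightest probe, in 7 lists with 67 genes, of which 51 were tested. In Tat−/Meth vs. Tat−/Sal, 34.3% of all 15102 genes were called higher and 15.1% lower, and the median was 0.14. Other genes of cholinergic neuron identity numbered 9, with 2 higher, 1 lower and a median of 0.26. Slc10a4, a vesicular protein of cholinergic and aminergic neurons, differed by −0.31 (adjusted p = 0.00796, but −0.19 and 0.424 with median scaling). Isl1, a transcription factor of these neurons, was 0.26 higher (adjusted p = 0.0118) but −0.16 without scaling.

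Choline and acetyl-CoA supply had 1 of 12 tested genes higher and 2 lower, with a median of 0.03. The largest was Pemt, which makes phosphatidylcholine from phosphatidylethanolamine and is thus a source of choline. It fell by 1.24 (interval −1.52 to −0.95, 2.36-fold, adjusted p = 6.9e-07) and was 1.54 higher in Tat+/Meth vs. Tat−/Meth (adjusted p = 3.9e-08). Neither of the 2 genes that anchor Ache passed by limma (1 at an unadjusted p below 0.05): Colq differed by −0.35 (adjusted p = 0.0823, and 0.0252 with slide as a random block) and Prima1 by 0 (interval −0.24 to 0.25), although Prima1 without scaling was −0.42 (adjusted p = 0.00542).

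Downstream of the receptors, the Gq list had 1 gene higher and 1 lower of 9 tested. Itpr1, the IP3 receptor, fell by 0.21 (adjusted p = 0.00451) but stood at −0.03 (adjusted p = 0.652) with quantile normalization. The Gi/o list had 1 gene higher and 2 lower of 10. Adcy5, the main adenylyl cyclase of striatal neurons and a target that Chrm4 restrains, fell by 0.42 (adjusted p = 1.24e-05), and Gnai2, an inhibitory G protein subunit, by 0.49 (adjusted p = 0.000357). With median scaling neither passed (−0.3, adjusted p = 0.156, and −0.37, adjusted p = 0.0857). The M-current channels, which muscarinic receptors close through Gq, had 1 gene higher and 1 lower of 3 tested, and Kcnq5 rose by 0.48 (adjusted p = 7.97e-05) but stood at 0.06 (adjusted p = 0.707) without scaling.

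Of the nicotinic receptor subunits, the ion channel counterpart of the muscarinic receptors, 6 of 16 genes were bright enough to test. Among these 2 were higher and 3 lower, the latter by more than 2-fold in the main fit. Under some alternative settings the falls of Chrnb4 and Chrna6 were smaller than 2-fold. Chrna2 lay at 12.48 to 13.05 in Tat−/Sal (median 12.75) and at 8.14 to 8.75 in Tat−/Meth (median 8.38), while its Tat+ arrays ran from 12.53 to 14.23 (Sal) and from 12.97 to 13.58 (Meth). No Tat−/Meth array came near those of the other groups, and the difference from Tat−/Sal was −4.34 (SE 0.25, interval −4.87 to −3.82, adjusted p = 1.34e-10). Chrnb4 fell by 1.29 (2.45-fold, adjusted p = 7.67e-07 by limma), and by 0.69 in the alternative setting with the smallest fall. Chrna6, a subunit of dopaminergic terminals, was called lower (adjusted p = 6e-04), from 6.51 to 6.75 in Tat−/Sal to 3.39 to 6.65 in Tat−/Meth. No size is given for it, since 3 of 5 Tat−/Meth spots were not well above background and normexp background correction gave −0.55. Chrna4 was 0.65 and Chrna7 0.26 higher, the latter as much as Isl1, whose difference was −0.16 without scaling. The differences of the 12 member probes in this contrast ran from −0.63 to 0.63.

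In Tat+/Meth vs. Tat−/Meth 15.7% of all genes were called higher and 37.7% lower, with a median of −0.15. The identity list had 1 of 9 higher and 4 lower (median −0.4), the supply list 1 of 12 higher and 2 lower, the Gq list 1 of 9 higher and 2 lower, the Gi/o list 2 of 10 higher and 2 lower, and the nicotinic list 3 of 6 higher and 3 lower. Chrna2 was 4.85 higher (28.8-fold, adjusted p = 2.98e-11 by limma). Chrnb4 was 1.56 higher (0.93 at the lowest over the alternative settings), and Chrna6 was called higher (adjusted p = 0.00117). By limma 0 of the 51 tested list genes passed in Tat+/Sal vs. Tat−/Sal (3 at an unadjusted p below 0.05), where 0.397% of all genes were called higher and 0.271% lower. The count was also 0 in Tat+/Meth vs. Tat+/Sal (6 unadjusted) and in Tat+/Meth vs. Tat−/Sal (3 unadjusted), where 0% of all genes were called.

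**Figure D5:**
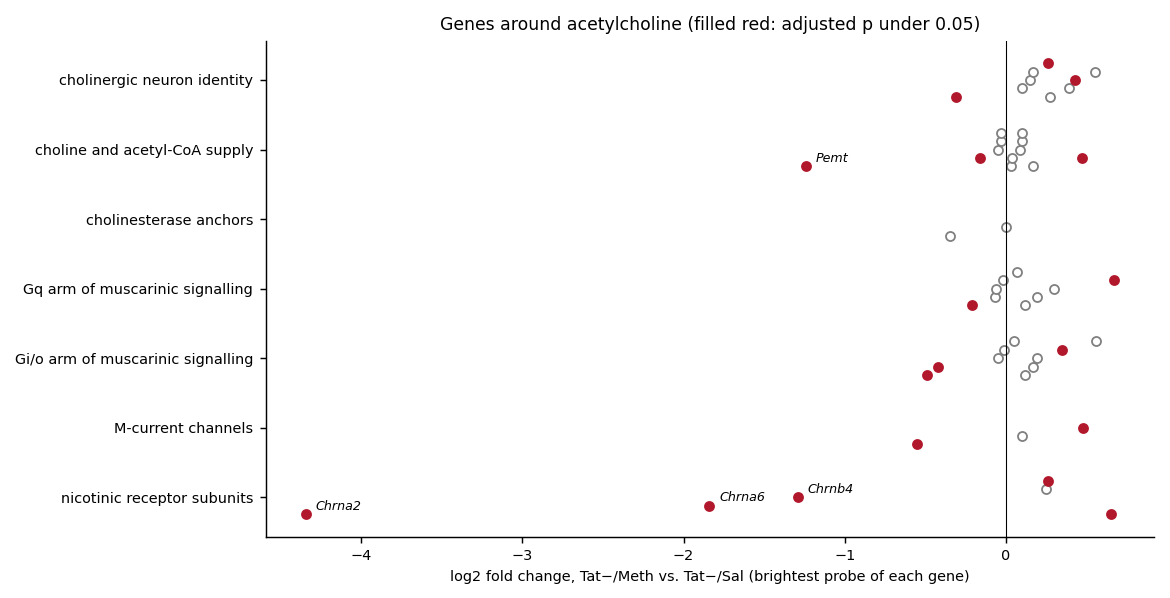
Difference in log2 level in Tat−/Meth vs. Tat−/Sal (x axis) for each of the 51 tested genes of the 7 pathway lists (y axis), each point the brightest probe of a gene, filled red where the adjusted p was below 0.05, with genes past 2-fold named. Only Chrna2, Chrna6, Chrnb4 and Pemt lie past 2-fold, and Chrna2 at −4.34 is farthest to the left, while the Chrna6 point rests on 2 of 5 Tat−/Meth spots well above background.

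Marker lists of other cells were read beside these values, and their part in the members' differences was not tested. In Tat−/Meth vs. Tat−/Sal the striatal projection neuron list had 0 higher and 2 lower of 9, Penk (−0.3) and Rgs9 (−0.24). Astrocyte markers had 2 of 5 higher, Slc1a3 (0.31) and Aldh1l1 (0.19). Their summed level was 15.5 to 15.85 in Tat−/Meth against 15.4 to 15.47 in Tat−/Sal. Differences of this size rest on the scaling, since without it Prima1 moved from 0 to −0.42 in this contrast. Thalamus markers had 1 higher and 2 lower of 5, the largest Tcf7l2 (−1.61), with a summed level of 11.68 to 11.9 against 11.93 to 12.07. Endothelium had 1 of 4 higher and microglia 1 of 5 lower. By limma 0 genes passed in the cortical list (0 at an unadjusted p below 0.05), the oligodendrocyte list (1 unadjusted), the choroid plexus list (0 unadjusted) and the red blood cell list (1 unadjusted).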

How the data were processed

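Total brain RNA was labelled with Cy3 and hybridised to 1-colour Agilent mouse arrays (design 028005, design build mm9:NCBI37:Jul2007), per the file headers and labels. The study's methods name another dye and scanner, and the files were followed. The deposited spot intensity is the processed signal that Agilent Feature Extraction 10.7.3.1 (protocol GE1_107_Sep09) gave after background correction, in arbitrary units and not normalised between arrays. The authors' series matrix, an alternative only, held linear intensities whose making is not given in the sources used here. Their column medians ran from 69.8 to 145, and 7831 values below 1 were set to 1 before logs were taken.

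Control spots and 4278 outlier spots were left out, spots of a probe were averaged, and each array's log2 intensities were shifted to a common 75th percentile. A linear model with 1 mean per group was fitted over 31516 probes with limma 3.58.1 in R 4.3.3. Single values were compared by two-sided exact permutation tests, and correlations by 100000 permutations within groups (SciPy 1.17.1). Genes in lists were represented by their brightest probe. Beside the members, genes were named if they passed with more than 2-fold, at most 3 a list by size, or otherwise if they had the 2 smallest adjusted p of a list. Markers of other cells and the 5 genes most like Chat were also named, and Isl1, Chrna4 and Chrna7 were added after their values were seen. Some genes that the rule names are not reported here. Same-numbered arrays of different groups deviated together only weakly (30 pairs, r −0.136 to 0.314, median 0.057, 9 pairs over 0.1). The median over 120 pairs with different numbers was −0.01. The numbers were not used as pairs in the main fit, and a replicate block was an alternative. The limma fit was also run on simulated data with independent noise and no slide effect. Such data could not show what slide does in contrasts with Tat−/Meth. The members and lists were chosen with earlier results of these data known. The alternatives were other scalings, normexp background correction (a model of signal plus background noise, offset 50), filters, the series matrix, slide, thresholds, the methods' t-test, probe averaging and single arrays left out.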

Additional observations from a re-analysis of the deposited data

Results flagged for a closer look

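Single arrays stood apart from the other 4 of their group in 4 of 52 groups of member values examined, where chance gives about 1 in 20. Chrm4 in Tat−/Meth replicate 5 read 7.67, and the other 4 Tat−/Meth arrays read 6.96 to 7.15. Chrm5, which was otherwise at background, read 7.06 in Tat−/Meth replicate 5 (2.9 to 3.9 in the others) and 6.71 in Tat+/Sal replicate 5 (2.83 to 3.47 in the others). Chat in Tat+/Meth replicate 4 read 12.23 where the others read 12.13 to 12.15, a gap of less than the SD of any other group.

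The difference between Meth and saline was not the same in Tat+ and Tat− mice for 4 of 12 member probes, against 37% of all probes, by the interaction term of the limma fit. It was 0.66 for Chrm4, 0.57 for Chat, −0.62 for Slc5a7 probe A and −0.47 for Chrm1 probe B. The Tat−/Meth arrays that enter it were all on slide 1, and slide and group cannot be told apart.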

How the results depend on the processing

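Of 12 member probes, 4 passed in Tat−/Meth vs. Tat−/Sal (the first contrast), 4 in Tat+/Meth vs. Tat−/Meth (the second), 0 in Tat+/Sal vs. Tat−/Sal (the third) and 4 in the interaction. Without scaling, 7 passed in the first, and with median scaling 2 in the interaction. In the third 1 passed with slide as a random block and 1 by the methods' t-test before adjustment. Requiring more than 2-fold, or adjusted p below 0.01 and 3-fold, left 0 in the first, 0 in the second and 0 in the interaction. Leaving out 1 array gave 4 to 5, 4 to 5, 0 to 1 (1 without Tat−/Sal replicate 3) and 3 to 4 in the same order, and 0 in the contrasts of Tat+/Meth with either saline group. Replicate numbers are shared between groups, and the main fit did not use them. With the replicate number as a block, 5, 5, 1 and 4 passed in that order. Without scaling the sign turned for Chrm1 probe B (−0.03, and 0.01 in the interaction), Ache probe B (−0.33, adjusted p = 0.0134), Isl1 (−0.16) and Prima1 (−0.42) in Tat−/Meth vs. Tat−/Sal, and quantile normalization turned Itpr1 in Tat+/Meth vs. Tat−/Meth (−0.04). Scaling shifts all probes of an array alike, so leaving it out moved every difference of a contrast by the same amount. In Tat−/Meth vs. Tat−/Sal, Ache probe B went from 0.09 to −0.33 and Slc18a3 from −0.14 to −0.56. The percentile used for scaling lay at 9.64 to 9.79 in Tat−/Meth and at 9.92 to 10.33 in Tat−/Sal. The turns without scaling thus reflect this common offset. Why the percentile differed, and why Itpr1 turned, was not tested. Of 741 values of single probes and probe pairs under other settings, 674 stayed on their side of the threshold (13 of them, none called, with the other sign), 32 lost and 29 gained the call, and 6 changed sign where a call was involved. A fixed slide block could not be fitted for contrasts with Tat−/Meth, nor a t-test for the interaction. Slide as a random block gave a correlation within slides of −0.059. A negative value narrows the SE of contrasts between groups on different slides. That setting could not separate slide from group in contrasts with Tat−/Meth. Arrays of 1 slide alone could be compared only where Tat+/Meth shared a slide with the other group. Among the tested members Chrm2 had the widest intervals. Its spots were well above background on 4 of 5 Tat+/Sal arrays and on all arrays of the other groups. Chrm5, which was not tested, had no interval.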
